A study of Mus musculus with 8 samples.

Results

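The regions described here are the long peaks of dimethylated lysine 9 of histone H3 (H3K9me2) in tumour regulatory T cells (Treg). A long peak was any autosomal peak of an H3K9me2 list whose end minus start was 2000 bp or more. There were 24630 of them among 749231 autosomal peaks in 6 lists, or 3.29%. The members were chosen by their measured length, so lengths, tag densities and the caller's own values are given only as descriptions.

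H3K9me2 is written by the methyltransferases G9a and GLP and removed by demethylases of the JMJD1 family, among others. It is spread over broad, gene-poor and mostly silent chromatin, often at the nuclear lamina, and it is low at active promoters. Treg are CD4 T cells that depend on the transcription factor Foxp3, dampen immune reactions and accumulate in tumours.

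The Treg came from tumours of C57BL/6 mice between 8 and 12 weeks old and were isolated by sorting. CUT&RUN, which uses an antibody-bound nuclease to cut out marked DNA, gave the H3K9me2 lists of 3 libraries labelled JMJD1CTregcKO (cKO, a conditional knockout of the demethylase gene Jmjd1c in Treg) and 3 labelled JMJD1CWT (WT). ATAC-seq, a measure of open chromatin, was run on 1 tumour Treg and 1 spleen Treg library of JMJD1CWT mice, and the spleen library was not used here. The type of tumour, the driver of the deletion and the number of animals behind a library are not given in the sources used here. P-values therefore measure the spread between these libraries, which may be technical.

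The H3K9me2 libraries held 24774509 to 30313851 tags, and the lists held 101728 to 166835 autosomal peaks. The deposited lists kept 24.4 to 43.9% of the peaks counted in their own headers. Every peak in them stood out at least 2.01-fold from the surrounding 10 kb, so a long peak is a long stretch of local enrichment and an even domain can be missed. The list of cKO replicate 3 was called with a lower fold setting than the other 5, and cKO replicates 1 and 3 carry the same knockout number in their header names. The prefixes of those names differ between cKO and WT, so a batch they stand for and the genotype cannot be told apart. As a check of the labelled cell type, the tumour ATAC library had a peak within 5 kb of 14 of 16 Treg genes and 9 of 9 T cell genes. It had one at 4 of 8 CD8 T and NK cell genes and at 2 of 5 B cell, 2 of 7 myeloid, 2 of 7 melanocyte and epithelial and 2 of 5 stromal and endothelial genes. The H3K9me2 lists hold no such check, and Jmjd1c itself (chromosome 10, 67096351 to 67256326, mm10) had 0 long peaks within 5 kb in each of the 6 libraries and 3 to 9 peaks of any length.

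Long peaks rarely held the start of a gene, and the sequences next to the starts they did hold had few CG dinucleotides, the sites of DNA methylation that are dense at most housekeeping promoters. Of 31396 autosomal starts in the RefSeq promoter table (GRCm38.p6), 238 lay in a long peak of at least 1 library, 22 of them in 2 libraries, 5 in 3 and 0 in more. The 250 bases before the start of those 5 genes are shown because they are the starts that recurred most in long peaks; capitals mark each CG.
Gm32311 (chr1:53700076-53700325, plus strand): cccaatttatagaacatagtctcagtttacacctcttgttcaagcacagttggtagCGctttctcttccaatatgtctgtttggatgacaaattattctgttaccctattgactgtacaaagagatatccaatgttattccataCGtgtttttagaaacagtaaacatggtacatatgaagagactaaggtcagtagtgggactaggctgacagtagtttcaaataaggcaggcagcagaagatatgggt
Gm33249 (chr11:71384910-71385159, plus strand): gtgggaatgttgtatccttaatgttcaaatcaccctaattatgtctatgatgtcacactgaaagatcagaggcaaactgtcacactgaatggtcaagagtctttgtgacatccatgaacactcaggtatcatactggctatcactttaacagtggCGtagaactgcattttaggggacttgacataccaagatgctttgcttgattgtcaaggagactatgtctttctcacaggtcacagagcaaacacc
Olfr461 (chr6:40544978-40545227, minus strand): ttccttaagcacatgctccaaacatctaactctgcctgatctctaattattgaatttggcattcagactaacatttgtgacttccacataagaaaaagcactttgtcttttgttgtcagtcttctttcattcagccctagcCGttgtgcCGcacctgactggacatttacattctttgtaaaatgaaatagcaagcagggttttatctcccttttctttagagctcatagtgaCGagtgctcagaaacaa
Gm35077 (chr6:58533691-58533940, minus strand): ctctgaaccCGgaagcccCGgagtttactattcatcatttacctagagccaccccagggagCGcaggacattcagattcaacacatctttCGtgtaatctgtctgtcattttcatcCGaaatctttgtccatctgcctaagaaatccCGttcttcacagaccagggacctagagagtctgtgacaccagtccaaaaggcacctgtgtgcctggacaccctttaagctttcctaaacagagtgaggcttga
Olfr503 (chr7:108544277-108544526, plus strand): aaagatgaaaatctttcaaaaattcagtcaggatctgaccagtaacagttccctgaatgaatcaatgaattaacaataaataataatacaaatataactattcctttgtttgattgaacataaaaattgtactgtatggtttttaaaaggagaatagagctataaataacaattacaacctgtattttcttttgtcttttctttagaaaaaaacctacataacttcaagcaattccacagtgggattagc

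These 5 stretches hold 2, 1, 3, 6 and 0 CG in the order printed, where the mean over all 31396 starts was 9.995 and 92.4% had at least 1. Olfr461 and Olfr503 encode olfactory receptors, and the other 3 are long non-coding RNAs. The start of Gm32311 lay in a long peak in all 3 cKO libraries and in no WT library, and a shorter peak covered it in WT replicates 1 and 2. The start of Gm35077 lay in a long peak in all 3 WT libraries and in no cKO library, and a shorter peak covered it in cKO replicates 1 and 2. The other 3 starts were in long peaks of both genotypes. A CG in this window is a description of the sequence and says nothing of its methylation.

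Over all starts in long peaks the upstream sequence differed from that at shorter peaks of the same library. Starts in long peaks had 3.27, 4.41 and 3.85 CG in the 250 bases in cKO replicates 1, 2 and 3 and 3.15, 2.51 and 2.98 in WT replicates 1, 2 and 3. Starts in shorter peaks had 5.95 to 8.29, and the ranges did not overlap. The means were 3.36 ± 0.673 and 7.26 ± 0.929 (SD, n = 6 libraries), lower at long peaks in 6 of 6 libraries (exact sign-flip permutation test, two-sided, p = 0.03125, the smallest that 6 libraries can give). The GC content was 43.7 ± 1.65% against 50.2 ± 1.34%, and 24.0 ± 7.64% against 9.06 ± 1.66% of starts had no CG, with 7.64% over all starts. Protein-coding genes made up 49.0 ± 5.61% of the starts in long peaks, 58.8 ± 3.31% of those in shorter peaks and 63.97% of all starts. Long peaks held 4.52 ± 0.687 starts per Mb of their own length, shorter peaks 11.5 ± 2.29 and the autosomes 12.8. Each of these 5 differences had the same direction in 6 of 6 libraries, with an exact sign-flip permutation p of 0.03125, also after Benjamini-Hochberg adjustment over the 5. They were computed after the promoter table had been seen, and each library had only 40 to 52 starts in long peaks.

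The number of long peaks overlapped between the genotypes at the 2 kb threshold. There were 4462, 5025 and 3842 long peaks in cKO replicates 1, 2 and 3 and 4025, 3717 and 3559 in WT replicates 1, 2 and 3. The highest 2 values were cKO, and cKO replicate 3 lay below WT replicate 1. The means were 4443 ± 592 and 3767 ± 237 (SD, n = 3), a difference of 676 (exact permutation test, two-sided, p = 0.2, where 3 against 3 cannot go below 0.1; adjusted over 3 genotype tests 0.3). Per 1000000 tags there were 180, 166 and 145 long peaks in cKO and 138, 130 and 120 in WT, so that every cKO library lay above every WT library and the exact permutation p was 0.1. The groups also separated at a threshold of 1500 bp, with 12879 to 14654 peaks in cKO and 11057 to 11879 in WT, and among peaks with a local fold of 3 or more, with 592 to 672 and 467 to 493 long peaks (exact permutation p = 0.1 for each). At 3000 bp they overlapped, with 414 to 576 and 425 to 489. They also overlapped with lists of equal length, taken by score, with 3842 to 4891 long peaks in cKO and 3559 to 4025 in WT. With peaks within 1000 bp stitched there were 5862 to 9166 and 5411 to 7143, again overlapping (exact permutation p = 0.3 for each of these 2 alternatives). The difference was 385 without cKO replicate 2 and 976.5 without cKO replicate 3, against 676 with all 6 libraries.

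The share of the list that was long also overlapped. It was 2.67, 3.79 and 3.57% in cKO replicates 1, 2 and 3 and 3.54, 2.94 and 3.499% in WT replicates 1, 2 and 3. The lowest value was in cKO replicate 1, whose list of 166835 peaks was the longest. The means were 3.34 ± 0.589% and 3.32 ± 0.334% (SD, n = 3; exact permutation p = 0.9, two-sided). The sign of that difference of 0.0182 percentage points turned in 5 of 14 alternatives, and with lists of equal length it was 0.438 (exact permutation p = 0.3). Long peaks covered 0.357 to 0.504% of the autosomes and made up 8.28 to 11.3% of the length covered by all peaks.

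**Figure D1:**
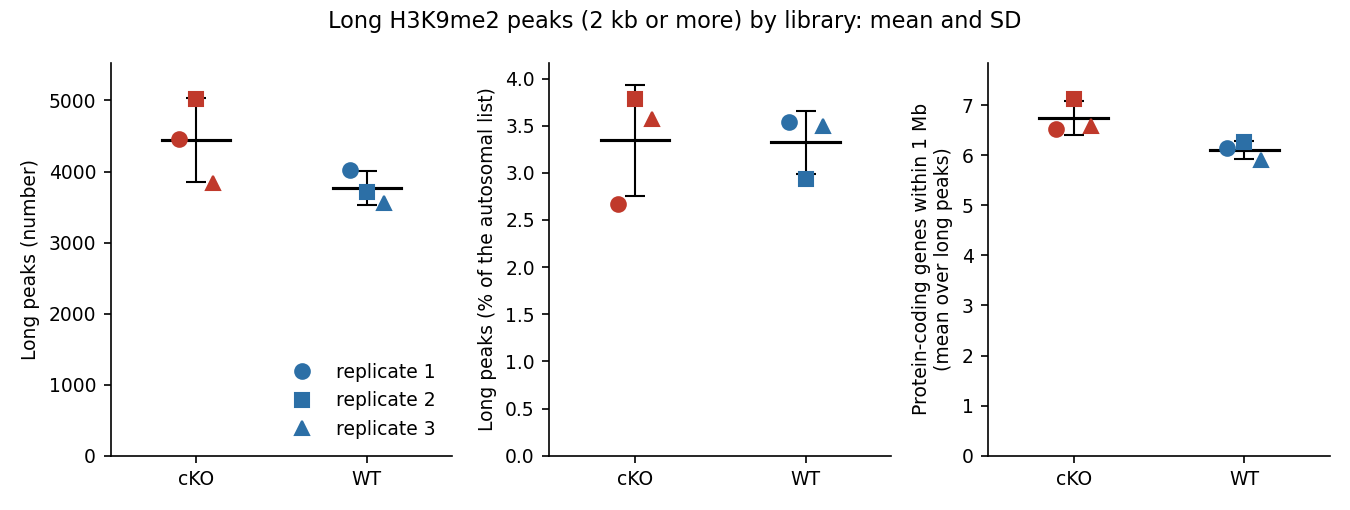
Number of long peaks (left), their percent of the autosomal list (middle) and the mean number of protein-coding genes in 1 Mb around them (right) in the 3 cKO and 3 WT libraries; each marker is a library, bars are the mean and SD. The groups overlap in number and share, while the cKO libraries lie at 6.52 to 7.13 genes and the WT libraries at 5.91 to 6.27.

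Most long peaks were only a little longer than 2 kb. Their median length was 2317 to 2343 bp, and 414 to 576 per library reached 3000 bp. Just inside the threshold, from 2000 to under 2100 bp, a library had 673 to 941 peaks, and just outside it, from 1900 to under 2000 bp, 895 to 1193. The longest peak of each library was 4946, 5200 and 5997 bp in cKO replicates 1, 2 and 3 and 5895, 5342 and 5107 bp in WT replicates 1, 2 and 3. All 6 lay outside protein-coding genes.

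The 5997 bp peak of cKO replicate 3 (chromosome 11, 18629717 to 18635714) was 245 kb from Meis1, a homeobox transcription factor gene, and all 5 other libraries had a peak there. The 5342 bp peak of WT replicate 2 (chromosome 18, 28617714 to 28623056) was 1643 kb from Pik3c3, which encodes a lipid kinase of autophagy, and was also touched in all 5 others. The 5107 bp peak of WT replicate 3 (chromosome 10, 65944748 to 65949855) was 941 kb from the catenin gene Ctnna3 and was touched in 4 others. The 5895 bp peak of WT replicate 1 near Ldah, the 4946 bp peak of cKO replicate 1 near Fam172a and the 5200 bp peak of cKO replicate 2 near Eya4 were each touched in 2 others.

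The deposited values per peak differed with length within each list. The median fold over the local region, as deposited by the authors, was 2.31 to 2.38 for long and 2.52 to 2.82 for shorter peaks, and the median tag density was 7.07 to 7.89 against 4.74 to 6.69 normalised tags per kb. Long peaks were thus denser in tags than shorter ones in 6 of 6 libraries and stood out less from their surroundings. Within a library the median distance between neighbouring long peaks was 293 to 385 kb, and 34.6 to 39.2% of long peaks had another within 100 kb.

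Long peaks lay in surroundings with fewer genes than those of shorter peaks. Counting protein-coding genes whose midpoint lay in the 1 Mb centred on a peak, the mean was 6.52, 7.13 and 6.58 genes in cKO replicates 1, 2 and 3 and 6.15, 6.27 and 5.91 in WT replicates 1, 2 and 3. Shorter peaks had 8.445, 10.1 and 9.61 in cKO and 7.35, 8.90 and 9.02 in WT, and autosomal positions taken every 10 kb had 8.54. In every library the long peaks were below the genome value, and only WT replicate 1 and cKO replicate 1 had shorter peaks below it too. Among peaks with a local fold of 3 or more this did not hold: long peaks then had 8.11 to 9.44 genes, above the genome value in cKO replicate 2, and shorter peaks 11.2 to 13.9. The means were 6.43 ± 0.423 and 8.90 ± 0.946 genes (SD, n = 6), a difference of -2.47 that was negative in 6 of 6 libraries (exact sign-flip permutation p = 0.03125, two-sided; the same value after adjustment over 4 such tests). No midpoint of a protein-coding gene lay in the 1 Mb around 14.9 ± 1.93% of long peaks, 9.36 ± 2.84% of shorter peaks and 11.4% of positions.

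The midpoints of long peaks were also less often inside genes. They lay in a protein-coding gene span for 26.5, 30.03 and 28.7% of long peaks in cKO replicates 1, 2 and 3 and for 27.2, 26.4 and 26.6% in WT replicates 1, 2 and 3. For shorter peaks the share was 36.5 to 46.0%, and 40.9% of autosomal positions were in a gene. The ranges did not overlap, and the means were 27.6 ± 1.48% and 41.7 ± 3.34% (exact sign-flip permutation p = 0.03125, lower in 6 of 6 libraries).

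Accessible sites were sparser around long than around shorter peaks. The tumour ATAC list held 7.70, 8.93 and 7.99 peaks in the 1 Mb around a long peak in cKO replicates 1, 2 and 3 and 7.27, 6.72 and 6.44 in WT replicates 1, 2 and 3. All cKO values lay above all WT values, with a difference of 1.40 peaks (exact permutation p = 0.1, two-sided, the smallest possible). The groups overlapped with lists of equal length, with 6.64 in cKO replicate 1 and 7.27 in WT replicate 1. They also overlapped at 3000 bp, with 6.58 in cKO replicate 3 and 6.91 in WT replicate 1. The drop from shorter to long peaks did not differ detectably between genotypes (exact permutation p = 0.9). Around shorter peaks there were 10.05 to 14.7, and around autosomal positions 11.2. The means were 7.51 ± 0.906 and 12.7 ± 1.65 (exact sign-flip permutation p = 0.03125, lower in 6 of 6 libraries). A long peak touched a tumour ATAC peak itself in 28, 33 and 40 cases in the cKO libraries and 18, 21 and 16 in the WT libraries, or 0.447 to 1.04% of long peaks against 1.15 to 2.08% of shorter ones. Among peaks with a local fold of 3 or more, long peaks had 11.4, 13.2 and 11.8 ATAC peaks in cKO and 10.7, 10.1 and 9.89 in WT, so the cKO values lay above the 11.2 of autosomal positions. The ATAC list is 1 WT library, and open chromatin is known to gather near genes, so this measure and gene density are not independent.

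With lists of equal length, taken by score, the difference between long and shorter peaks was -1.53 genes in place of -2.47, and in cKO replicate 1 both had 5.97 genes. Much of the contrast lay among peaks shorter than 2 kb. The mean number of genes in 1 Mb was 9.74 around peaks under 750 bp and 7.27 from 750 to under 1000 bp, lower in 6 of 6 libraries. It was 6.58 from 1500 to under 2000 bp and 6.50 from 2000 to under 2500 bp, a step of -0.08 that did not pass (exact sign-flip permutation p = 0.344, adjusted over 16 steps 0.344). Around peaks of 3000 bp or more it was 6.12. Without the peaks under 750 bp the difference between long and shorter peaks was -0.765 genes in place of -2.47, still negative in 6 of 6 libraries (p = 0.03125, exact sign-flip permutation). The same alternative gave -6.84 in place of -14.1 percentage points inside genes and -2.07 in place of -5.20 ATAC peaks. The share inside genes went on falling across the threshold, from 30.9% at 1500 to under 2000 bp to 28.3% at 2000 to under 2500 bp and 24.2% at 3000 bp or more, each step with an adjusted exact sign-flip permutation p of 0.0385.

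**Figure D2:**
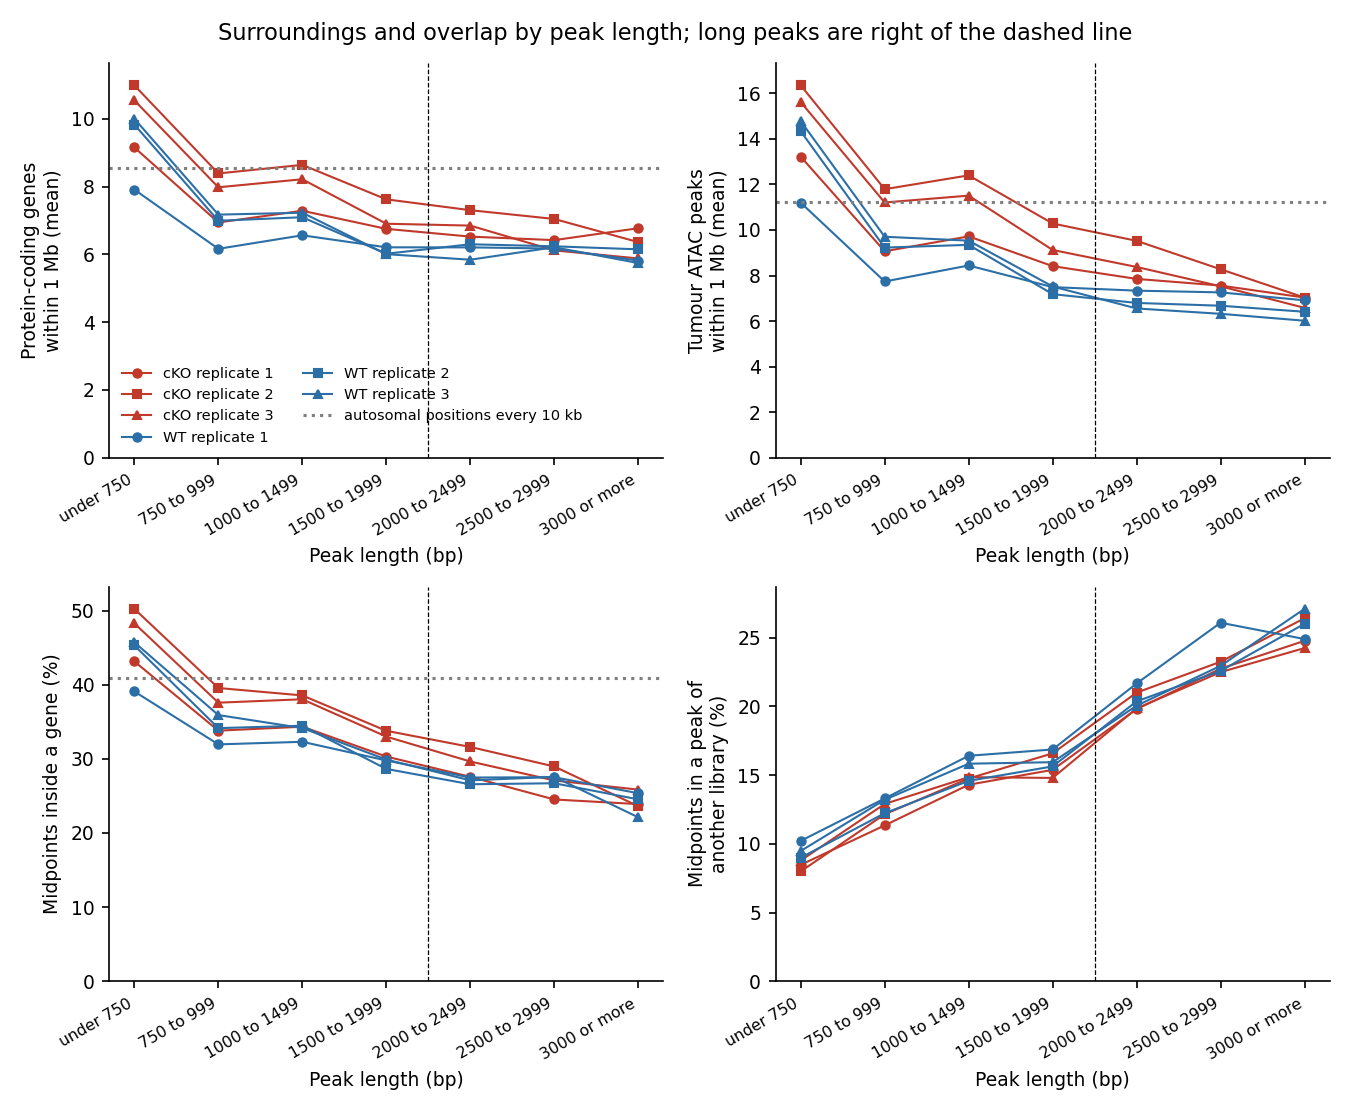
Mean number of protein-coding genes and of tumour ATAC peaks in 1 Mb around a peak, percent of midpoints in a gene and percent of midpoints in a peak of another library (mean over the other 5), by peak length in bp; each line is a library. Gene density is flat at the dashed line that marks 2 kb, and the overlap between libraries goes on rising to 25.6% at 3000 bp or more.

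Gene density around long peaks did not overlap between the genotypes at the 2 kb threshold. The cKO values of 6.52 to 7.13 genes all lay above the WT values of 5.91 to 6.27. The means were 6.74 ± 0.335 and 6.11 ± 0.180 (SD, n = 3), a difference of 0.635 genes (exact permutation p = 0.1, two-sided, the smallest that 3 against 3 can give; adjusted over 3 genotype tests 0.3). Shorter peaks had 9.37 ± 0.832 and 8.42 ± 0.935 genes, and their libraries overlapped. The drop from shorter to long peaks was -2.63 ± 0.612 genes for cKO libraries and -2.31 ± 0.996 for WT libraries (exact permutation p of the difference = 0.7). With lists of equal length the groups overlapped in long peaks too, with a difference of 0.434 (exact permutation p = 0.3). At 3000 bp they also overlapped, with 5.88 to 6.77 genes in cKO and 5.74 to 6.15 in WT (exact permutation p = 0.2).

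Across the 19 autosomes the long peaks were densest on chromosome 13 with 1.87 ± 0.292 per Mb (SD over 6 libraries) and chromosome 3 with 1.84 ± 0.222. They were sparsest on chromosome 11 with 1.23 ± 0.280, chromosome 19 with 1.34 ± 0.259 and chromosome 9 with 1.41 ± 0.242. Chromosome 11 had 13.2 genes per Mb and chromosome 3 had 6.15. Chromosome 7, the richest in genes with 14.0 per Mb, had 1.65 ± 0.210 long peaks per Mb. Over the 19 chromosomes, which share the same libraries, Pearson's r of genes per Mb and long peaks per Mb was -0.73 and Spearman's rho -0.69, given as a description. Every cKO library lay above every WT library on 4 of 19 chromosomes, which were 1, 9, 13 and 15.

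**Figure D3:**
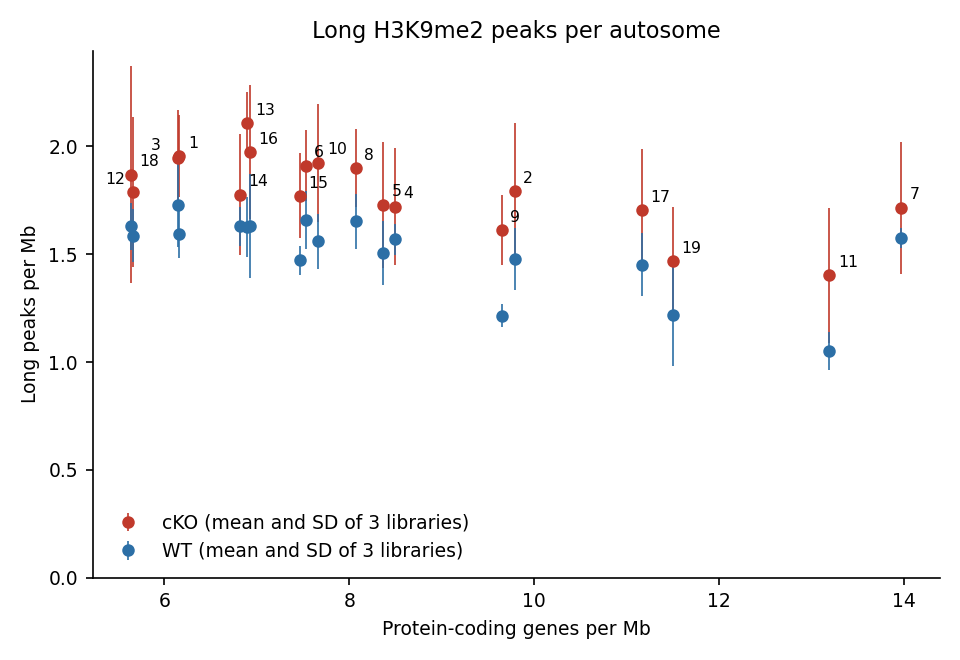
Long peaks per Mb against protein-coding genes per Mb for the 19 autosomes, labelled by number; points and bars are the mean and SD of 3 cKO or 3 WT libraries. Chromosomes 11, 19 and 9 lie lowest, and gene-rich chromosome 7 lies above them.

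Long peaks of 1 library coincided with a peak of another more often than shorter ones did. The midpoint of a long peak lay in a peak of another library for 21.0, 22.2 and 20.9% of long peaks in cKO replicates 1, 2 and 3 and for 23.1, 21.5 and 21.6% in WT replicates 1, 2 and 3, as a mean over the other 5 libraries. For shorter peaks it was 9.996, 10.1 and 10.6% in cKO and 11.9, 10.5 and 11.2% in WT. The lowest value of long peaks was well above the highest of shorter peaks. The means were 21.7 ± 0.832% and 10.7 ± 0.730% (SD, n = 6), a difference of 11.0 percentage points that was positive in 6 of 6 libraries (exact sign-flip permutation p = 0.03125, two-sided). In cKO this difference was 11.1 ± 0.896 and among WT libraries 10.9 ± 0.447 (exact permutation p = 0.9). Each overlap was also divided by the percent of the autosomes that the peaks of the other library covered. This gave 5.30 ± 0.242 for long and 2.61 ± 0.135 for shorter peaks (SD, n = 6). Unlike gene density, the overlap rose at each length step tested, from 8.99% under 750 bp to 15.9% at 1500 to under 2000 bp and 20.5% at 2000 to under 2500 bp (adjusted exact sign-flip permutation p = 0.0385 at each). The mean tag density rose as well, from 5.75 normalised tags per kb under 750 bp to 8.03 at 3000 bp or more, and its part in the overlap was not tested.

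That a stretch was long in 1 library seldom meant that it was long in another. Over the 30 ordered pairs of libraries, a median of 8.93% of long peaks (range 6.25 to 11.4%) touched a long peak of the other library. A further 33.1% (25.1 to 48.45%) touched only shorter peaks, and 57.8% (41.1 to 67.7%) touched none. The median touching a long peak was 9.43% within cKO, 8.92% within WT and 8.59% between genotypes, with overlapping ranges, and the difference was not tested. Long peaks covered only 0.357 to 0.504% of the autosomes, and the share expected to touch by position alone was not computed. Of the long peaks of a library, 69.4 ± 1.88% touched no long peak of the other 5 libraries, 15.3 ± 2.44% touched no peak of any length, and 5.05 ± 0.418% touched a peak in all 5.

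**Figure D4:**
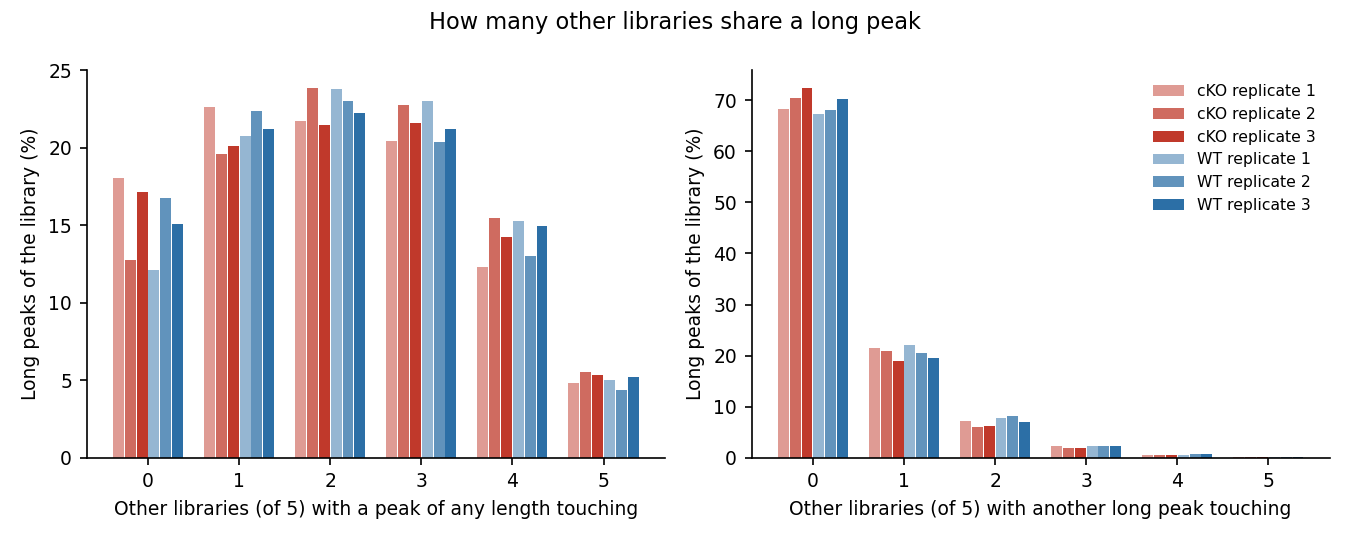
Percent of the long peaks of each library by the number of other libraries (0 to 5) that have a touching peak of any length (left) or a touching long peak (right); bars are the 6 libraries. Most long peaks were touched by a peak in 1 to 3 other libraries, and 67.3 to 72.3% of them by no other long peak.

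Merging long peaks that touched gave 20382 regions. Of these, 17105 (83.9%) were long in 1 library, 2523 in 2, 579 in 3, 140 in 4, 30 in 5 and 5 in all 6. A peak of any length was present in all 6 libraries at 821 regions (4.03%). The mean number of genes in 1 Mb was 6.403 around regions long in 1 library, 6.66 in 2, 6.69 in 3, 6.35 in 4 and 5.73 in 5. Of the 35 regions long in 5 or 6 libraries, 5 touched a protein-coding gene and 1 touched a tumour ATAC peak. Of all long peaks of a library, 26.4 to 30.03% had their midpoint in a gene and 0.447 to 1.04% touched a tumour ATAC peak. The regions are few and merged, so no difference from these shares was tested.

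The 5 regions long in all 6 libraries lay between genes. The region on chromosome 8 from 42576392 to 42579525 had no gene midpoint within its 1 Mb, was 550 kb from Triml1, and was covered over 2262, 2885 and 2527 bp in cKO replicates 1, 2 and 3 and 2566, 2255 and 2624 bp in WT. The region on chromosome 2 from 7577786 to 7580961 had none either, was 181 kb from the nearest end of Celf2, a gene of an RNA-binding splicing regulator, and was covered over 2025, 2718 and 2506 bp in cKO and 2739, 2280 and 3084 bp in WT. In both regions the covered lengths of the genotypes overlapped.

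The other 3 lay closer to genes. The region near Rab2a, a small GTPase gene of membrane traffic (chromosome 4, 8485619 to 8488512, 47.0 kb away), was covered over 2203 to 2800 bp. The region near Iftap (chromosome 2, 101477827 to 101481758, 79.0 kb away) was covered by long peaks over 2132 to 3911 bp, and the region near Pgk2, the testis-specific phosphoglycerate kinase gene (chromosome 17, 40173141 to 40176898, 30.1 kb away), over 2097 to 3024 bp. Of the next 15 regions by rank, each long in 5 libraries, 5 lay in a gene. These genes were Gbe1, which encodes the glycogen branching enzyme (chromosome 16, 70547918 to 70552601), the homeobox gene Meox2, Apba2, Pter and Naaladl2. In Gbe1 the peaks covered 2921, 4264 and 2995 bp in cKO replicates 1, 2 and 3 and 3643, 3738 and 4102 bp in WT, and only cKO replicate 1 had no peak of 2000 bp or more there.

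Regions that separated the genotypes were few. Of 20382 merged regions, 579 were long in exactly 3 libraries, most of them in libraries of both genotypes. A long peak in all 3 cKO libraries and in no WT library was found at 35 of these regions, and the reverse at 29. Whether these counts exceed those of other groupings of 3 libraries was not tested. Requiring no peak of any length in the other genotype left 5 cKO regions and 6 WT regions. The cKO regions were in Csgalnact1, a chondroitin sulfate synthesis gene (chromosome 8, 68495533 to 68499600, with 3247, 3003 and 2476 bp covered), and outside genes. The genes nearest to the latter were Dcbld2 (36.4 kb), Slc7a11, Vmn2r117 (22.5 kb) and Efr3a (110 kb). Slc7a11 encodes the cystine transporter, and its region (chromosome 3, 50537521 to 50540873) was 38.4 kb away with 2569, 3340 and 3209 bp covered. The WT regions were in Cacnb2, a calcium channel subunit gene (chromosome 2, 14924176 to 14926680, with 2411, 2295 and 2204 bp covered), and outside genes. For the latter the nearest genes were Ipo11 (133.6 kb), Slc6a15 (324.3 kb), Smc2 (554.5 kb), Cdh2 (68.9 kb) and Alkbh8 (332.7 kb). The rule chose these regions for their difference, so they are listed with no test.

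**Figure D5:**
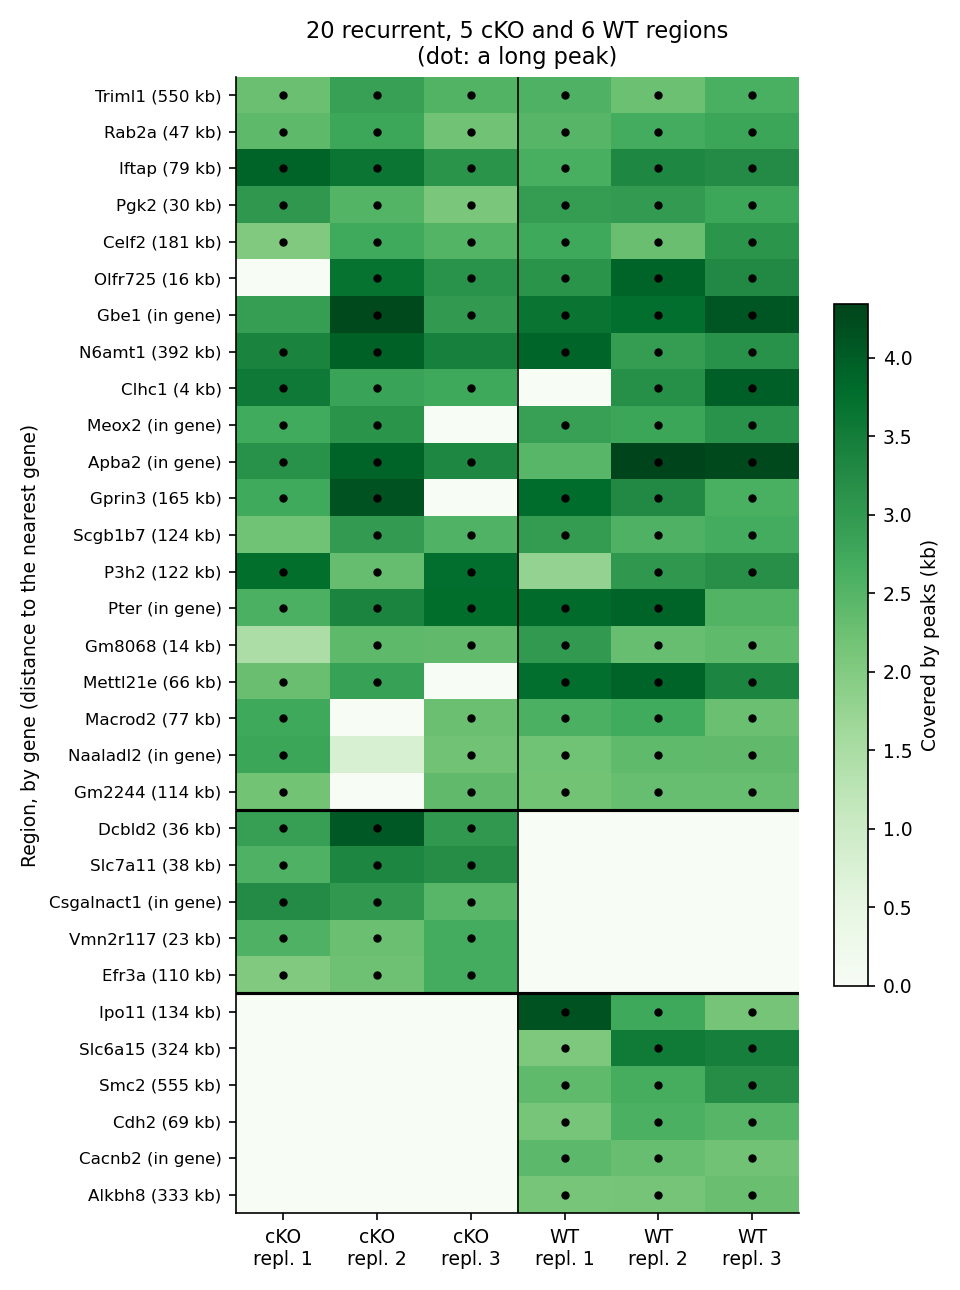
Length covered by peaks (colour, in kb) in each library at the 20 most recurrent regions, the 5 regions covered in cKO and the 6 covered in WT, named by gene with the distance to the nearest one; dots mark a long peak. The upper 5 rows carry dots in all 6 columns, and the lower 2 blocks are empty in 1 genotype by the rule that chose them.

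In 5 Mb windows of the autosomes, the coverage by long peaks was compared between genotypes with limma. Of 491 windows, 1 was higher in cKO (0.204% of windows) and 0 were lower at an adjusted p of 0.05, while 52 had an unadjusted p under that value, 49 of them higher in cKO. The window was on chromosome 10 from 25000001 to 30000000, with 18 genes. They include Ptprk, a receptor tyrosine phosphatase gene, Lama2, a laminin chain gene, Rspo3, a Wnt pathway agonist gene, and Themis, which is needed for T cell development in the thymus. Long peaks covered 0.830, 1.13 and 0.575% of it in cKO replicates 1, 2 and 3 and 0.308, 0.221 and 0.307% in WT, from 16, 22 and 12 peaks against 6, 5 and 6. All cKO values lay above all WT values, with a difference of 0.57 percentage points (limma, adjusted p = 0.0206).

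In 63 windows (12.8%) every cKO library lay above every WT library, and in 7 (1.43%) every cKO library lay below. The next 3 windows by p were higher in cKO, on chromosome 2 from 70000001, chromosome 3 from 65000001 and chromosome 6 from 50000001. They had 0.409 ± 0.202% in cKO against 0.105 ± 0.0685%, 0.812 ± 0.207% against 0.377 ± 0.0889%, and 0.437 ± 0.120% against 0.127 ± 0.0436% (limma, adjusted p = 0.208 for each). The window with the smallest p in the other direction was on chromosome 18 from 25000001, where cKO had 0.405 ± 0.110% against 0.827 ± 0.248% for WT (limma, adjusted p = 0.226). The single call was lost without each of the 3 WT libraries, without cKO replicate 1 and without cKO replicate 2 (0 higher each), and 4 windows were called without cKO replicate 3. It was also lost when coverage was divided by that of all autosomes (0 higher), and 45 higher and 2 lower windows were called with a length threshold of 1500 bp.

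The genes that long peaks touched most often were very long ones. Of 20665 autosomal protein-coding genes, 17900 (86.6%) were touched in no library and 78 in all 6, and the 78 had a median length of 869 kb against 17.5 kb over all genes. Ctnna3 was touched by 2, 5 and 10 long peaks in cKO replicates 1, 2 and 3 and by 6, 4 and 5 in WT, and Cntnap2, a neuronal adhesion gene, by 9, 5 and 3 and by 7, 4 and 4. Lrp1b, Fhit, Robo2 and Sdk1 followed with 23 to 27 over the 6 libraries. Per length, Sox6, which encodes a transcription factor, was highest of the 20 genes with most long peaks, at 0.526 per 100 kb and library. The autosomal mean was 0.167. Choosing genes by their number of long peaks favours rates above that mean, and the rates of all genes were not compared. Of the 2765 genes touched in at least 1 library, 22 were touched in all 3 cKO and no WT library, and 7 were the reverse. The cKO libraries also held more long peaks on average, 4443 against 3767, and these gene counts were neither adjusted for that nor tested.

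Clustered gene families were compared as the share of midpoints within 5 kb of a member. Olfactory receptor genes, expressed in the nose and silent elsewhere, took 0.695, 0.756 and 0.494% of long peaks in cKO replicates 1, 2 and 3 and 0.571, 0.565 and 0.337% in WT. The mean was 0.570 ± 0.148% against 0.340 ± 0.0386% of shorter peaks, higher in 6 of 6 libraries. Vomeronasal receptor genes, which serve pheromone sensing, took 0.303 ± 0.101% against 0.202 ± 0.0219%, also higher in 6 of 6, though in cKO replicate 3 the shares were 0.182 and 0.178%. All WT libraries, with 0.348, 0.430 and 0.393% of long peaks, lay above all cKO libraries, with 0.224, 0.239 and 0.182%. Shorter peaks separated in the same way, with 0.210 to 0.230% in WT and 0.173 to 0.204% in cKO. Zinc-finger genes, many of which encode repressors of transposons, took 0.684 ± 0.123% against 1.02 ± 0.0716%, lower in 6 of 6. In cKO replicates 1, 2 and 3 the shares were 0.762, 0.677 and 0.885%, from 34 long peaks each. All lay above the WT shares of 0.571, 0.646 and 0.562%, from 23, 24 and 20. Each of these separations has an exact permutation p of 0.1, unadjusted and the smallest possible, and no other family separated so in long peaks. For vomeronasal receptors it rests on 7 to 16 long peaks per library. It was lost at 1500 bp, with 0.244% in WT replicate 3 and 0.264% in cKO replicate 1. The groups also overlapped at 3000 bp and with a local fold of 3 or more. The zinc-finger shares overlapped with a local fold of 3 or more and with stitching. Histone genes took 0 against 0.0147 ± 0.00913%. None of the 10 families passed after adjustment (exact sign-flip permutation, adjusted p = 0.0781 for these 4, which had an unadjusted p of 0.03125). As that is the smallest value 6 libraries can give, a family could pass only if most of the 10 reached it together. The adjusted result therefore cannot decide on a single family. Clustered protocadherins, keratins, killer-cell lectin-like receptors, MHC genes, serpins and cytochrome P450 genes had 0 to 13 long peaks per library and adjusted p from 0.188 to 0.594.

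Lineage genes were looked up with 5 kb on both sides. Of 15 autosomal Treg genes, 3 had a long peak in any library, and over all 7 marker lists 9 of 56 genes (16.1%) did, where 17.4% of all autosomal genes did. Ikzf2, which encodes Helios, had 1 in cKO replicate 3 and in WT replicate 2, the surface receptor gene Nrp1 had 1 in cKO replicate 1 and in WT replicate 2, and Rtkn2 had 1 in cKO replicate 3. Of 9 T cell genes and 8 CD8 T and NK cell genes, 0 had one in any library. Genes of other lineages with a long peak were the B cell factor gene Pax5 in 3 libraries, the macrophage gene Adgre1 in 4, Itgam in 2, and the pigment genes Tyr and Dct and the endothelial gene Cdh5 in 1 each. Foxp3 lies on X and was not counted.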

How the data were processed

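The series has 8 libraries, 6 of H3K9me2 CUT&RUN and 2 of ATAC-seq, grouped by the genotype and tissue in the labels. In the submitters' processing notes the tools are HOMER, deepTools, Picard, SAMtools 1.11, Bowtie2 2.4.2 and Trim Galore 0.6.6, and the build is mm10. Per the file headers, the authors ran HOMER findPeaks on each library by itself, without a control library, with a peak size of 500 bp, a threshold of 5 tags where 6.49 to 7.81 were expected, and a Poisson p of 0.05 against the local 10 kb. The deposited tag signal is scaled to 10000000 tags, per the file headers. The deposited scores, the fold over the local region, the p-value and the region size in bp come from the authors' peak caller, and the deposited ATAC list also gives a focus ratio, a fraction. All deposited H3K9me2 peaks had a fold of 2.01 or more and a p-value of 0.0496 or less, a filter that no header states.

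Lists were read as deposited. Gene positions, starts and upstream sequences came from RefSeq tables of GRCm38.p6, the assembly that mm10 is built on. Genes were counted by midpoint in the 1 Mb around a peak midpoint, and peaks touched when they shared 1 bp. Genotypes were compared by exact permutation tests of 3 against 3 libraries, and long with shorter peaks by exact sign flips over 6 libraries (numpy 2.4.6, pandas 2.3.3, Python 3.11.15). Coverage of 5 Mb windows was tested by limma 3.58.1 under R 4.3.3 with genotype as the only term, a trended empirical Bayes prior, Benjamini-Hochberg adjustment and a threshold of 0.05. Its prior degrees of freedom were infinite, so the spread was taken wholly from the trend. Tested on simulated data with 50 of 491 windows changed, the test called 0% of them at a shift of 0.2 percentage points and 82% at 0.4, with 0 false calls. Every simulated window had the same spread, the median over windows, so these rates need not hold for windows with another spread. The interval functions were tested on simulated data too.

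The members, gene lists and tests were chosen with earlier results of these data known. The named regions are the 20 long in most libraries (ties by the smallest covered length), up to 10 covered in all libraries of 1 genotype and in none of the other, and the longest peak of each library, and the named windows are among the 5 with the smallest p in each direction. The length classes, the promoter comparison and the alternative without peaks under 750 bp were added after the data were seen. Alternatives changed the length threshold, the peaks used, stitching within 1000 bp, the window and gene set, and left out each library. Peaks outside the autosomes and the spleen library were left out of the comparisons.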

Additional observations from a re-analysis of the deposited data

Results flagged for a closer look

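The peaks outside the 19 autosomes were not part of the comparisons. On chromosome X there were 418 long peaks in cKO replicate 1 and 430 in cKO replicate 2, above the 340 to 388 of the WT libraries, while cKO replicate 3 had 326, below all of them. On unplaced sequences there were 26 long peaks in cKO replicate 1 and 22 in cKO replicate 2, above the 12 to 19 of WT, and 10 in cKO replicate 3. On the mitochondrial chromosome cKO replicate 2 had 1 peak, which was long, and the other 5 libraries had 0. Each value was singled out because it lay above every WT library in data that no comparison used, and no difference was tested. The same 2 cKO libraries also had the most autosomal long peaks, 4462 and 5025.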

How the results depend on the processing

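Of 269 alternative values, 179 were unchanged. For differences this meant the same direction and side of the threshold, and for numbers of windows or families a similar number. The 3 genotype tests cannot go below an exact permutation p of 0.1, so their side of the threshold was fixed in advance. Every alternative with all 6 libraries kept the 4 differences between long and shorter peaks at an exact sign-flip permutation p of 0.03125. Leaving out each library gave -2.72 to -2.34 genes, 10.3 to 11.9 percentage points of overlap, -5.68 to -4.93 ATAC peaks and -15.1 to -13.8 percentage points inside genes, none past the threshold because 5 libraries cannot go below an exact permutation p of 0.0625. The 5 differences at starts in long peaks kept their sign in each of these too. The difference in share between genotypes had no stable sign. It was 0.438 percentage points with lists of equal length, 0.342 at 1500 bp, -0.0332 percentage points at 3000 bp, -0.332 without the peaks under 750 bp (added after seeing the data), and from -0.203 to 0.352 with a library left out, with -0.175 without WT replicate 2, -0.203 without cKO replicate 2 and -0.0945 without cKO replicate 3.

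Among 5 Mb windows, 0 were higher after division by the percent over all autosomes, with a local fold of 3 or more, at 3000 bp, with log2 numbers of peaks, and with stitching. There were 45 higher and 2 lower at 1500 bp, and 5 higher and 1 lower with 1 Mb windows. Leaving out each library gave 0 to 4 higher and 0 lower. At 1500 bp, 8 of 10 families reached the smallest possible unadjusted p together and so passed, in place of 0. Killer-cell lectin-like receptors turned to -0.0292 percentage points at 3000 bp, serpins to 0.0352 at 3000 bp and 0.0202 within 100 kb, and cytochrome P450 genes to -0.00378 at 3000 bp, -0.0486 within 100 kb and, with a library left out, from -0.000763 (without cKO replicate 1) to 0.0457. The cause was not tested.

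The window coverage was also correlated between libraries after the genotype mean of each window had been subtracted. Same-numbered cKO and WT libraries had correlations of -0.0016, -0.0398 and 0.0339, and libraries with different numbers -0.0460 to 0.0492. In this measure there was no sign of pairing by number, and it cannot show whether same-numbered libraries were prepared together. With the replicate number as a block, the differences were 676 peaks (exact sign-flip permutation p = 0.25, the smallest for 3 pairs), 0.0182 percentage points of share (p = 1, exact) and 0.635 genes (p = 0.25, exact), and 0 windows were called higher. Small numbers limit what can be seen: a library had 40 to 52 starts in long peaks, and an exact permutation test of 3 libraries a group cannot reach p = 0.05. Simulated shifts of window coverage were called in 0% of changed windows at 0.2 and in 82% at 0.4 percentage points, with no size between them run. That simulation gave all windows the same spread.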
